A study of Mus musculus with 24 samples.

Results

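The loci described here are those of 9 keratin genes of the epidermis: Krt5, Krt14 and Krt15 of the basal layer, Krt1 and Krt10 of the suprabasal layers, and Krt6a, Krt6b, Krt16 and Krt17, which are known as stress keratins. Their members were the accessible regions within the gene body or within 10 kb on either side of it (protein-coding genes of GENCODE on GRCm38), and 47 of the 134385 regions of the whole series met that rule. The 12 peak lists placed 335 of their 708357 peaks in these windows, between 20 peaks in the ΔTA-SOX9 list and 37 in the SOX9+ARID1a list. The study asked how SOX9, a transcription factor of hair follicle stem cells, redirects epidermal stem cells (EpdSCs), and it measured open chromatin by ATAC-seq, an assay that reads where a transposase can cut DNA. Its 24 samples formed 12 groups of 2, the replicates of each group were merged by the authors before peaks were called, and each group therefore gave 1 list with no replicate error and no test.

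All cells came from CD1 mice, were labelled male and carried K14rtTA, a doxycycline (DOX) dependent activator under a Krt14 promoter. The skin samples had the genotype K14rtTA; TRE-myc-Sox9 and were sorted from back skin before DOX at postnatal day 21 (D0) and after 1 week (W1, day 28), 2 weeks (W2, day 35) and 6 weeks (W6, day 63) of DOX. The W12 cells were taken 12 weeks into DOX from donor skin grafted as neonatal tissue onto immunocompromised hosts, so time and tissue source cannot be told apart for that list. The culture samples were keratinocytes of back skin grown in low-calcium medium. They comprised K14rtTA; TRE-myc-Sox9 cells without DOX (noDOX) and with DOX (WT-SOX9), cells with SOX9 lacking its DNA-binding HMG domain (ΔHMG-SOX9) or its transactivation domain (ΔTA-SOX9), cells with TRE-FLAG-AFOS (a dominant-negative FOS that blocks AP1 factors), and TRE-myc-Sox9 cells with AFOS (SOX9+AFOS) or with TRE-ARID1a (SOX9+ARID1a, a subunit of the SWI/SNF remodeller). All 6 culture arms received 1 µg per ml DOX. The labels give day 3 for 1 replicate each of WT-SOX9, ΔHMG-SOX9 and ΔTA-SOX9 and no time for the other culture samples. In skin, several mice were pooled for each replicate. In culture, AFOS and ARID1a were carried by lentivirus. The methods describe lentiviral delivery for all 3 SOX9 versions, WT included, whereas the labels give the WT-SOX9 cells the TRE-myc-Sox9 genotype, so the delivery of SOX9 in that list is uncertain. Because the activator is itself driven by a Krt14 promoter, reads of the transgene could be placed at Krt14, and this was not tested.

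Keratins are the intermediate filament proteins of epithelia, and each filament pairs a type I with a type II chain. Krt5 (type II) and Krt14 (type I) build the filaments of dividing basal cells, whereas Krt1 (type II) and Krt10 (type I) replace them once a cell leaves the basement membrane and differentiates. Krt6a and Krt6b (type II) and Krt16 and Krt17 (type I) are kept low in resting interfollicular epidermis, are switched on in wounds, inflammation and hyperproliferation, and are also expressed in the hair follicle. Krt15 is a type I keratin of basal cells and of the hair follicle bulge.

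All 9 genes lie on the minus strand. On chromosome 15 the type II genes occupy chr15:101676023-101680287 (Krt6b), chr15:101689910-101694307 (Krt6a), chr15:101707070-101712898 (Krt5) and chr15:101845426-101850794 (Krt1). On chromosome 11 the type I genes occupy chr11:99385254-99389364 (Krt10), chr11:100131758-100135928 (Krt15), chr11:100203162-100207548 (Krt14), chr11:100246091-100248902 (Krt16) and chr11:100256217-100261029 (Krt17). The windows of Krt5 and Krt6a, of Krt6a and Krt6b, and of Krt16 and Krt17 overlapped, so some regions belonged to 2 genes. Other coding genes reached into the windows of Krt14 (Krt9), Krt15 (Krt19), Krt1 (Krt77) and Krt17 (Krt42).

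The labels were set against the transgenes and cell type markers. No list, AFOS and SOX9+AFOS included, had a peak confined to Fos exons past the first, so Fos did not show the AFOS label. A peak confined to Sox9 exons past the first one was missing at W1 although the other 4 skin lists, D0 included, had one. In culture such a peak was listed in noDOX (3.71), SOX9+AFOS (5.11) and SOX9+ARID1a (3.71) and in none of WT-SOX9, ΔHMG-SOX9, ΔTA-SOX9 and AFOS, so it did not separate WT-SOX9 from noDOX in the direction of their labels. The list labelled AFOS had 18 peaks over Arid1a and the SOX9+AFOS list 11, beside 20 in SOX9+ARID1a and 4 to 9 in the other 9 lists. Peaks confined to Arid1a exons past the first numbered 6 in SOX9+ARID1a (highest score 11.3), 3 in AFOS (5.22) and 3 in SOX9+AFOS (4.43). There was 1 each in noDOX, ΔHMG-SOX9 and ΔTA-SOX9, and none in the other lists. All arm and time names are therefore those of lists so labelled. The check went against W1, AFOS, SOX9+AFOS and the pair of noDOX and WT-SOX9. It also went against ΔHMG-SOX9 and ΔTA-SOX9, labelled as carrying versions of SOX9 but without a peak confined to Sox9 exons past the first. All 6 EpdSC markers (Krt5, Krt14, Trp63, Itga6, Itgb4, Col17a1) had a start peak in every list, and none of the 3 immune and 2 endothelial markers had one in any. Krt5 and Krt14 are themselves members, so they are no separate check. A start peak in every list was also found for 41.3% of all coding genes and for 3 of 6 hair follicle stem cell markers. Of 6 hair follicle stem cell markers, 4 had a start peak at D0 and W1, 3 at W2 and 6 at W6 and W12, with Cd34 and Lgr5 listed in skin at W6 and W12 alone, and their part in the keratin values was not tested. Among the 3 fibroblast genes Pdgfra had a start peak in 10 lists and Col1a1 and Col3a1 had none, and among the 3 melanocyte and mast cell genes Mitf had one in 12 lists and Kit and Dct had none. Accessibility in bulk cells cannot separate fewer open cells from less opening per cell.

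The sequences of 9 regions are given because the largest changes in score, or the arms that differed most, fell on them. Each is the plus strand of GRCm38 over the 200 bp at the centre of the region's highest-scoring peak in any list, read from the reference genome, and none overlaps an exon of a coding transcript. Capitals mark every match to the 6 motifs searched on either strand, namely TGACTCA (AP1), ACAATGG or ACAATAG (SOX), TGTGGT (RUNX), 2 copies of CATG with 6 bases between them (p63), and the GATA and AP2 letters that are spelled out with the motif counts. The sequences without capitals hold none of these letters in the bases shown, which says nothing of the rest of the region.

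From upstream of the basal genes, the Krt5 stretch carries the p63 letters, the Krt14 stretch a RUNX match and the Krt15 stretch no match.
Krt5, distal part of the upstream region, chr15:101715124-101715323: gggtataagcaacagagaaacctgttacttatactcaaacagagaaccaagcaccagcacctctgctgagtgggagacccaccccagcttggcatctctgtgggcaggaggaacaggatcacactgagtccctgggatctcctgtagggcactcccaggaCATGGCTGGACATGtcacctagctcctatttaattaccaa
Krt14, 2.37 kb upstream, chr11:100209820-100210019: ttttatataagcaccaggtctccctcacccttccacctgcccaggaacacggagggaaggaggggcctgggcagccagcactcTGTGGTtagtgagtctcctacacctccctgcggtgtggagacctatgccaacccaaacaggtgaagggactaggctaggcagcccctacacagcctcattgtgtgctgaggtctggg
Krt15, 3.23 kb upstream, chr11:100139074-100139273: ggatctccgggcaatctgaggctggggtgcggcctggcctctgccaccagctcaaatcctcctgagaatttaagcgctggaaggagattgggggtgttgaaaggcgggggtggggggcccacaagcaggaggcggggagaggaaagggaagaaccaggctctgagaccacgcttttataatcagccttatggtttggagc

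From the stress keratins, the stretch just upstream of the Krt16 start carries 2 AP1 matches, that upstream of Krt6a none, and that between Krt6a and Krt6b a SOX match.
Krt16, promoter, chr11:100249108-100249307: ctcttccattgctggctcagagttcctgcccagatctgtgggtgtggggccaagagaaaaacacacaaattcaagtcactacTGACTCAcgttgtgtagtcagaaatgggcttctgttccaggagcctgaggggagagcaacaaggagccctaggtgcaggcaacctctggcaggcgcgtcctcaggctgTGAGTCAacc
Krt6a, 3.38 kb upstream, chr15:101697579-101697778: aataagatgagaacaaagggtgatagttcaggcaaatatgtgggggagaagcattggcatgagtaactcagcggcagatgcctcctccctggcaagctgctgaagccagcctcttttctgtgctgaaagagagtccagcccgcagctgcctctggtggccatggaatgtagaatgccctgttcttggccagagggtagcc
Krt6a, 5.62 kb past its start, chr15:101688710-101688909: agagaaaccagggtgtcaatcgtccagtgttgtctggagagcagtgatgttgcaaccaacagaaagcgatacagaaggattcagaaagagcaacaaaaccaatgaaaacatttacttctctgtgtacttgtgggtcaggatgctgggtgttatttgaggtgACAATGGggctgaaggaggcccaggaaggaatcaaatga

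Farther upstream of Krt5 and Krt17 are regions whose culture peaks were highest in lists labelled as carrying full-length SOX9, of which the Krt17 stretch carries 1 SOX and 2 AP2 matches and the Krt5 stretch none.
Krt5, 9.06 kb upstream, chr15:101722141-101722340: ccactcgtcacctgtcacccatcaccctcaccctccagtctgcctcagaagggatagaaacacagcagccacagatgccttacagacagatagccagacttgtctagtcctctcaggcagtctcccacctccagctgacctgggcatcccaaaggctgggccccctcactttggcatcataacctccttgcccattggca
Krt17, 9.07 kb upstream, chr11:100269981-100270180: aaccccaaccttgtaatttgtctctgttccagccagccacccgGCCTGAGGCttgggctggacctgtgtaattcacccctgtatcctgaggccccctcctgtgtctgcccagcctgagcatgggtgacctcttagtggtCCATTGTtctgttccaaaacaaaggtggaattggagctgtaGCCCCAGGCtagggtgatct

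The last sequence is from the region upstream of Krt1 that was found in all 5 skin lists and in no culture list. Its central bases hold no match, while the whole region holds 3 GATA matches and 1 SOX match.
Krt1, 4.88 kb upstream, chr15:101855579-101855778: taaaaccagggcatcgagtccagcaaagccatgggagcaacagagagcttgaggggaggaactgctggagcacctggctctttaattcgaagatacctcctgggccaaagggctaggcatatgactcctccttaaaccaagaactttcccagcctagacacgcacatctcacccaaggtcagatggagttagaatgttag

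The score used below is the authors' peak score, which appears to be normalized to a similar sum per list and has a minimum of 3. That minimum corresponded to unequal evidence among the skin lists, whose weakest peaks had a −log10 q of 14.5 (D0), 9.37 (W1), 4.21 (W2), 5.74 (W6) and 10.1 (W12). Median scores ran from 8.41 (W12) to 10.8 (noDOX). The start score of the 9 genes is that of the highest peak within 500 bp of the annotated 5′ end. For markers, other genes and counts over all genes, a start peak is instead one that covers the start base of any coding transcript, which includes inner starts.

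The starts of the basal pair were open in every list. At Krt5 the start score was 21.7 (D0), 24.1 (W1), 20.5 (W2), 12.9 (W6) and 20.7 (W12). In culture it was 15.3 in noDOX, 14.7 in WT-SOX9, 11.7 in ΔHMG-SOX9, 9.9 in ΔTA-SOX9, 7.64 in AFOS, 8.93 in SOX9+AFOS and 6.83 in SOX9+ARID1a. W6 was thus the lowest of the skin lists, every arm stood below noDOX, and the 7 culture values overlapped the skin values only in the range of W6.

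Krt14, the partner of Krt5, had a different order. Its start score was 23.7 (D0), 18.2 (W1), 16.3 (W2), 13.2 (W6) and 21.2 (W12), so W6 was again the lowest list in skin. In culture it was 32.8 in noDOX, 35.9 in WT-SOX9, 33.3 in ΔHMG-SOX9, 26.3 in ΔTA-SOX9, 30.6 in AFOS, 30.9 in SOX9+AFOS and 32.5 in SOX9+ARID1a. All 7 culture values were above all 5 skin values, the reverse of Krt5, for which all but noDOX and WT-SOX9 were below every skin value. Over the 12 lists the Pearson correlation of the log2 start scores of Krt5 and Krt14 was -0.526, as a description over lists that share a processing and fall into 2 systems.

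Krt15 was open mainly in skin. Its start score was 16.1 (D0), 25.7 (W1), 9.99 (W2), 5.49 (W6) and 11.5 (W12), which makes W6 2.93-fold lower than D0. The fold enrichment differed less and was highest at D0, at 8.2, 7.53, 5.93, 4.84 and 7.06 in the same order. In culture the start peak scored 6.01 in noDOX, 6.32 in WT-SOX9, 3.68 in ΔHMG-SOX9, 4.55 in SOX9+AFOS and 3.36 in SOX9+ARID1a, and none was listed in ΔTA-SOX9 or AFOS. All skin values but that of W6 exceeded every culture value.

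The suprabasal genes had no open start of this kind. Krt1 had no peak within 1 kb of its start in any of the 12 lists, and Krt10 had one at its 5′ end only at W1, with a score of 3.03. A peak over the inner start of a shorter coding transcript of Krt10, within the gene, was present in all 12 lists. It scored 3.5 (D0), 10.9 (W1), 5.56 (W2), 3.23 (W6) and 6.82 (W12). In culture it scored 5.61 in noDOX, 13.0 in WT-SOX9, 3.73 in ΔHMG-SOX9, 8.21 in ΔTA-SOX9, 7.83 in AFOS, 13.6 in SOX9+AFOS and 6.87 in SOX9+ARID1a. The W1 list and the WT-SOX9 and SOX9+AFOS lists held its highest scores. By fold enrichment the skin lists lay closer together, at 5.14 (D0), 6.38 (W1), 6.21 (W2), 4.15 (W6) and 6.67 (W12).

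The stress keratins divided. Krt6a had a start score of 5.44 (D0), no start peak at W1, and scores of 15.6 (W2), 26.8 (W6) and 24.1 (W12). The MACS2 fold enrichment of these peaks over local background hardly differed, at 6.08 (D0), 5.27 (W2), 6.05 (W6) and 6.03 (W12), while their −log10 q was 27.8, 29.7, 65.8 and 94.2 in the same order. In culture its score was 22.5 in noDOX, 26.2 in WT-SOX9, 37.4 in ΔHMG-SOX9, 30.3 in ΔTA-SOX9, 35.3 in AFOS, 16.6 in SOX9+AFOS and 26.1 in SOX9+ARID1a. The W6 and W12 scores lay within this culture range, and the D0 score lay below it.

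Krt6b, the neighbouring paralog of Krt6a, had no peak over its start in any list. Weak peaks that ended 7 to 44 bp upstream of the start scored 3.23 in ΔTA-SOX9, 3.61 in AFOS, 3.06 in SOX9+AFOS and 3.59 in SOX9+ARID1a, all close to the minimum of 3. Within 500 bp of the Krt6a start, 65.9% of 32-base words occur once in the genome, and of Krt6b 69.5%. The starts of the pair share 26.0% of these words, so reads there can be lost or split between the paralogs, and the same holds for Krt14 and Krt16, which share 21.3%.

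Krt16 had the highest start score of the 9 genes in 9 of the 12 lists, the exceptions being W1, W2 and SOX9+AFOS. It scored 29.1 (D0), 12.7 (W1), 19.3 (W2), 29.5 (W6) and 51.9 (W12). Its fold enrichment was instead highest at D0, at 12.9, and 8.62 to 11.8 in the other skin lists. In culture it scored 92.6 in noDOX, 55.0 in WT-SOX9, 90.8 in ΔHMG-SOX9, 89.3 in ΔTA-SOX9, 50.6 in AFOS, 12.1 in SOX9+AFOS and 84.7 in SOX9+ARID1a. The SOX9+AFOS score was 7.62-fold lower than noDOX and fell at the 54.4th percentile of its list, against the 99.1th for noDOX. WT-SOX9 and AFOS had nearly the same score, between that of SOX9+AFOS and those of the other 4 lists. At W1, W2 and in SOX9+AFOS the peak stopped 4, 68 and 33 bp short of the annotated start. Within 500 bp of this start 71.2% of 32-base words are unique.

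At Krt17 the skin lists lay closer together than at Krt16 or Krt6a. Its start score was 8.67 (D0), 12.1 (W1), 16.8 (W2), 13.1 (W6) and 15.5 (W12), with D0 the lowest. By fold enrichment W6 was the lowest instead, at 4.85, and the other 4 lists lay between 5.97 and 6.62. In culture it was 14.8 in noDOX, 25.3 in WT-SOX9, 17.1 in ΔHMG-SOX9, 20.4 in ΔTA-SOX9, 10.4 in AFOS, 8.76 in SOX9+AFOS and 9.42 in SOX9+ARID1a. The ΔTA-SOX9 and WT-SOX9 lists were the only ones above 20, and the 3 lists whose peak names record fragments as input were the lowest in culture.

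**Figure D1:**
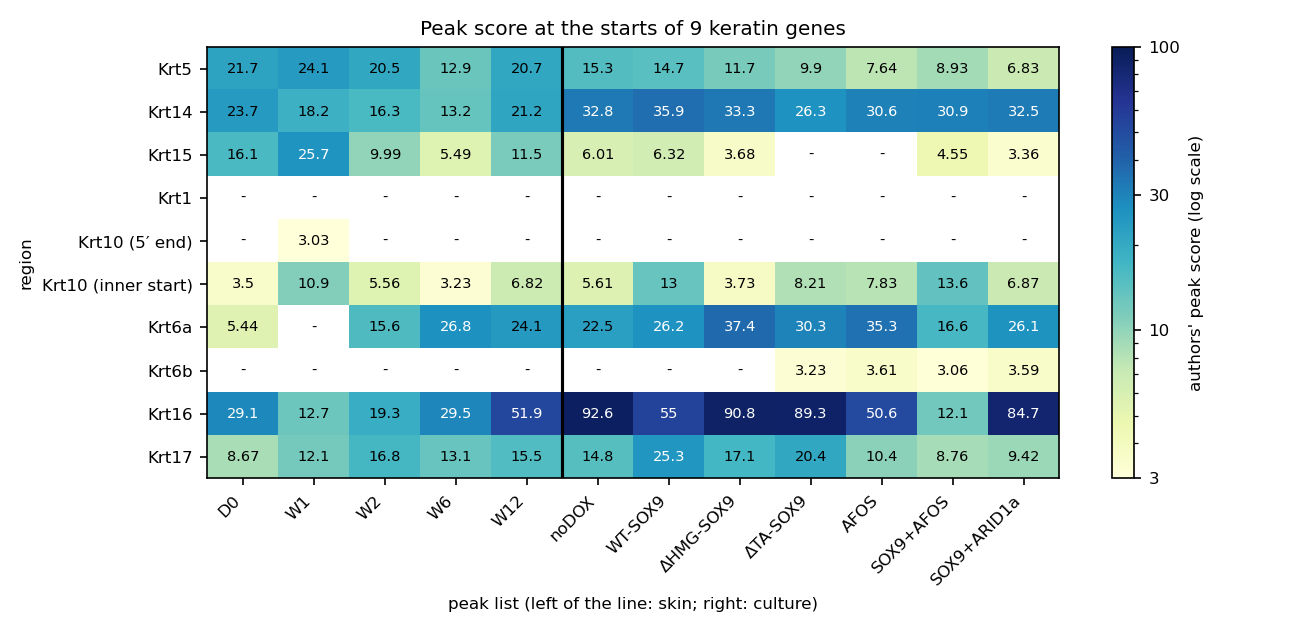
Authors' peak score (colour on a log scale, with the value in each cell) of the highest peak within 500 bp of the 5′ end of each of the 9 genes, and of the inner start of Krt10, in the 12 lists (columns, skin to the left of the line and culture to the right). A dash is a list without a peak there: Krt1 has none, and Krt16 reaches 92.6 in noDOX but 12.1 in SOX9+AFOS.

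Start peaks that cover the annotated base in all 12 lists were found for Krt5, Krt14, Krt10 (inner start) and Krt17, 4 of the 9 genes, and for 41.3% of the 21951 protein-coding genes. Krt6a had one in 11 lists, Krt16 in 9, Krt15 in 7, and Krt1 and Krt6b in 0. Genes whose start scores ran most alike, by Pearson correlation of log2 scores over the 12 lists among 9056 genes with a start peak in all of them, were Zfp292 (0.968), Hist1h4c (0.965) and Hist1h2ak (0.963) for Krt5. For Krt14 they were Per1 (0.947), Tnrc6b (0.938) and Lama3 (0.938), of which the last encodes a laminin chain of the basement membrane. For Krt10 they were Slc10a3, Ftsj3 and Psmc5 (0.872 to 0.862). These are the extremes of many genes over few lists and are given as a description.

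Away from the starts, the clearest difference along the skin time course was a pair of regions upstream of Krt6a and Krt14 with higher scores from W2 on, and a region upstream of Krt1 with lower ones. The intergenic region 3.38 kb upstream of Krt6a (chr15:101697245-101698129), whose 1 AP1 match lies 165 bp from the centre of its highest peak and outside the bases printed, scored 3.32 (D0), had no peak at W1, and scored 38.0 (W2), 19.0 (W6) and 25.9 (W12). The score at W2 was 11.4-fold that of D0, and the fold enrichment was 4.46 at D0, 8.5 at W2, 5.14 at W6 and 6.57 at W12, so that at W6 it was little above D0 although the score was 5.74-fold higher. All culture lists, noDOX included, had it, with 53.3 in noDOX, 48.1 in WT-SOX9, 51.5 in ΔHMG-SOX9, 19.2 in ΔTA-SOX9, 34.6 in AFOS, 53.1 in SOX9+AFOS and 58.2 in SOX9+ARID1a. The ΔTA-SOX9 score was 2.77-fold lower than noDOX.

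The intergenic region 2.37 kb upstream of Krt14 (chr11:100209659-100210184), with the RUNX match above, scored 3.46 (D0), had no peak at W1, and scored 20.1 (W2), 13.7 (W6) and 12.6 (W12). Its fold enrichment was 2.72 (D0) and 5.68 (W2). In culture it was absent from noDOX, ΔHMG-SOX9, ΔTA-SOX9 and AFOS, and it scored 6.76 in WT-SOX9, 47.1 in SOX9+AFOS and 12.1 in SOX9+ARID1a. The culture lists with a peak were thus the 3 labelled as carrying full-length SOX9. Of the members that reached a score of 10, it was 1 of 2 regions more than 2-fold higher at both W2 and W6 than at D0 that did not lie at a gene start, the other being the Krt6a region above.

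The region 4.88 kb upstream of Krt1 (chr15:101855195-101856162, intergenic) was the strongest distal region of the 9 loci at D0. It scored 43.7 (D0), 46.9 (W1), 12.6 (W2), 7.27 (W6) and 12.7 (W12), which made W2 3.47-fold and W6 6.01-fold lower than D0. Its fold enrichment was 11.3, 9.22, 7.48, 5.52 and 6.74 in the same order. No culture list had a peak there, noDOX included. Inside Krt1, a region over coding exons 4.65 kb past the start scored 8.26 (D0), 11.2 (W1), 11.4 (W2), 5.04 (W6) and 6.57 (W12), and in culture only 4.02 in ΔHMG-SOX9 and 3.01 in ΔTA-SOX9.

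**Figure D2:**
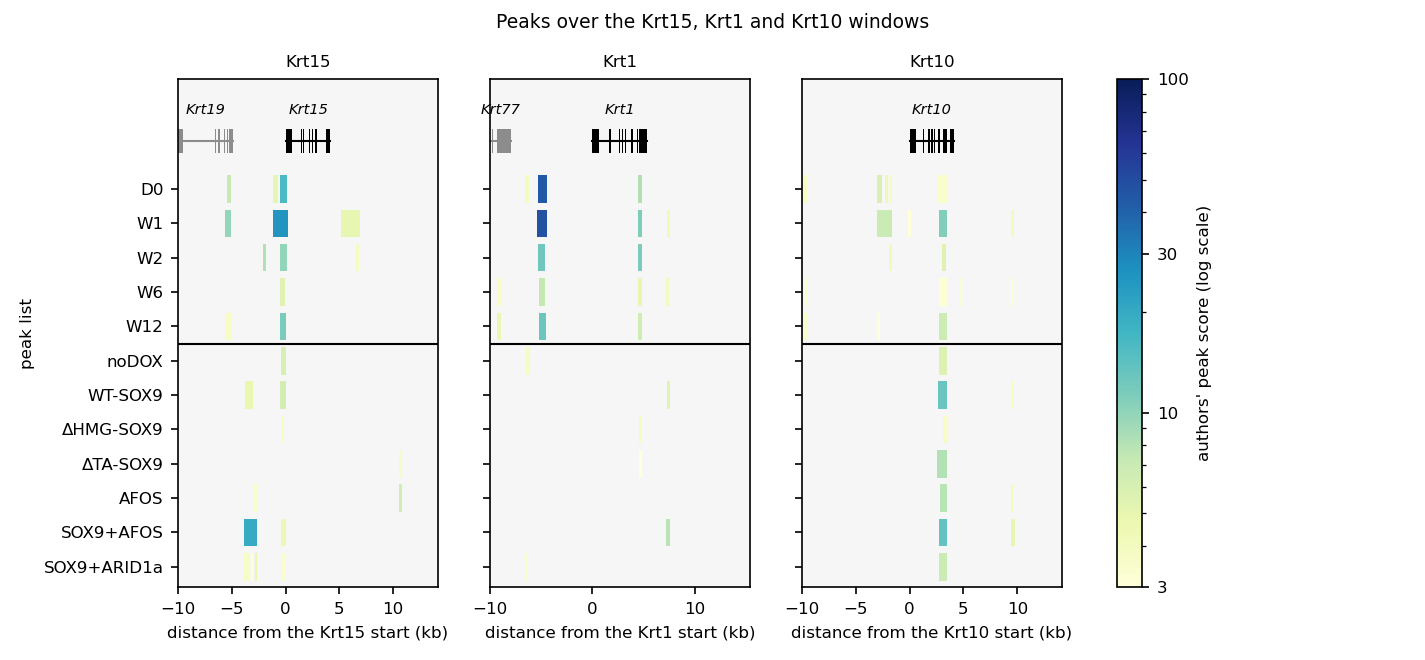
Peaks of the 12 lists (rows) in the windows of Krt15, Krt1 and Krt10, placed by distance from each gene start in kb with transcription running left to right; boxes are peaks coloured by the authors' score (log scale), black bars exons of the members and grey bars exons of other genes. The Krt1 region 4.88 kb upstream is dark at D0 (43.7) and W1 (46.9), pale at W6 (7.27) and absent from all culture lists.

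Krt10 had few other regions. One 2.32 kb upstream (chr11:99390949-99392414) scored 5.89 (D0), 6.85 (W1), 4.2 (W2) and 3.1 (W12), with none at W6 or in culture. In the Krt15 window, an exon of Krt19 carried a peak of 7.19 (D0), 9.996 (W1) and 3.64 (W12), and a region 1.97 kb upstream of Krt15 had one at W2 alone, of 8.23. The region 3.23 kb upstream of Krt15 (chr11:100138558-100139763) was the reverse, absent from all skin lists. It scored 4.81 in WT-SOX9, 3.52 in AFOS, 19.6 in SOX9+AFOS and 4.9 in SOX9+ARID1a, and it had no peak in noDOX, ΔHMG-SOX9 or ΔTA-SOX9.

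Among the other Krt14 regions, that 7.97 kb upstream (chr11:100215096-100215941) was strong in culture and weak in skin. It had no peak at D0, W1 or W2 and scored 3.92 (W6) and 4.32 (W12). In culture it scored 32.4 in noDOX, 32.03 in WT-SOX9, 21.1 in ΔHMG-SOX9, 14.9 in ΔTA-SOX9, 19.8 in AFOS, 35.9 in SOX9+AFOS and 48.1 in SOX9+ARID1a, so that every culture list exceeded every skin list. The region at the 3′ end of Krt14 (5.24 kb past the start) was present in all 12 lists, at 3.73 to 8.4 in skin and 3.44 to 20.2 in culture, with the highest score in ΔHMG-SOX9. A region 7.17 kb past the start scored 3.53 (D0), 11.2 (W1), 6.56 (W2), 9.19 (W6) and 6.49 (W12), and 3.43 to 12.7 in culture.

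Near Krt17 the region at the 3′ end of the gene (chr11:100254005-100256443), which also lies in the Krt16 window, was present in all 12 lists. It scored 26.3 (D0), 12.02 (W1), 30.8 (W2), 19.96 (W6) and 25.8 (W12), and 13.5 (ΔTA-SOX9) to 40.1 (SOX9+ARID1a) in culture. The region 1.43 kb upstream of Krt17 was found in all 5 skin lists, at 4.96, 5.1, 7.98, 12.5 and 4.84 from D0 to W12, and in culture in SOX9+AFOS alone, at 14.4. The region 9.07 kb upstream (chr11:100269782-100270426), whose centre lies 233 bp upstream of the start of Krt42, had no skin peak. It scored 4.04 in noDOX, 30.1 in WT-SOX9, 3.18 in ΔHMG-SOX9, 26.3 in SOX9+AFOS and 12.4 in SOX9+ARID1a, and had no peak in ΔTA-SOX9 or AFOS. WT-SOX9 was 7.46-fold, SOX9+AFOS 6.53-fold and SOX9+ARID1a 3.07-fold above noDOX, and the SOX letters printed above lie 43 bp from the centre of the WT-SOX9 peak.

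**Figure D3:**
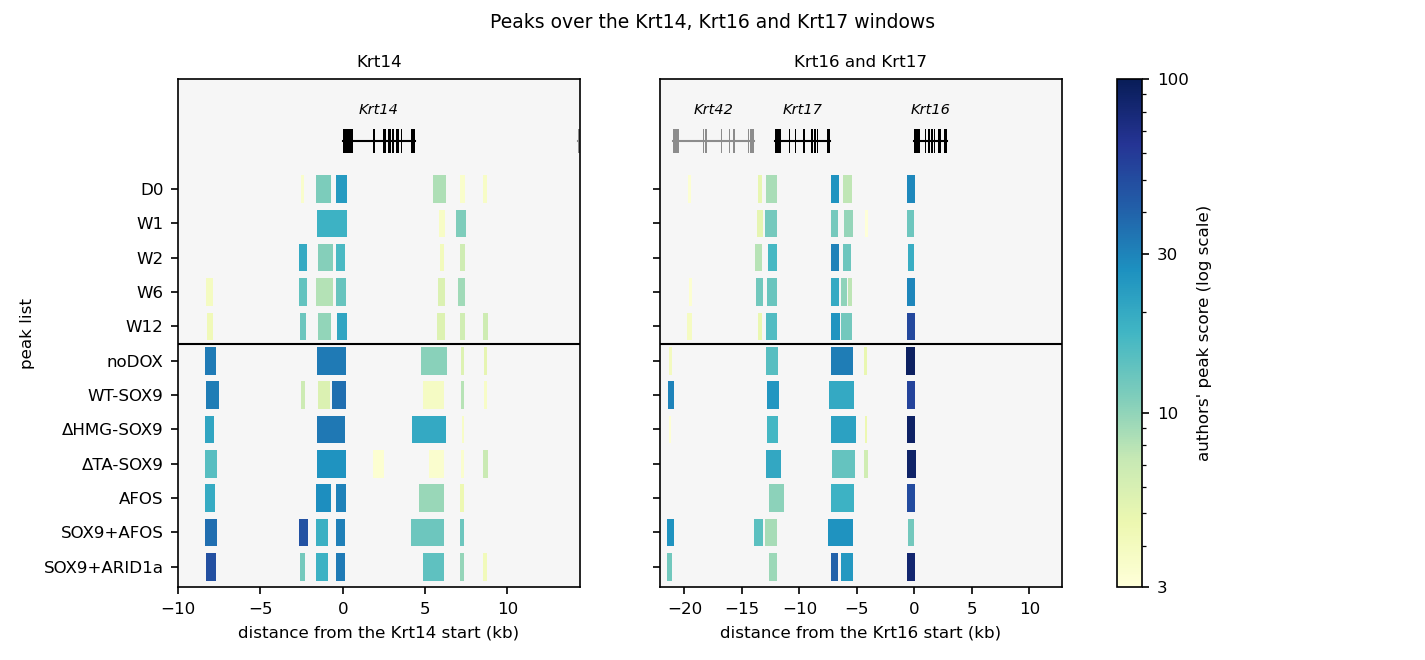
Peaks of the 12 lists (rows) in the windows of Krt14 (left) and of Krt16 and Krt17 (right), placed by distance from the Krt14 or Krt16 start in kb, drawn as in the plot of Krt15, Krt1 and Krt10. The Krt14 region 2.37 kb upstream is filled at W2 (20.1) and in SOX9+AFOS (47.1), and the region beside Krt42 at the left of the right panel in WT-SOX9 (30.1).

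The Krt5 upstream region (chr15:101713621-101715583) was present in all 12 lists but was made of separate peaks. The proximal peak, centred 1.04 to 1.1 kb upstream, scored 5.87 (D0), 8.81 (W1), 5.44 (W2), 6.06 (W6) and 5.89 (W12). The distal peak, centred near 2.2 kb upstream, scored 3.3 (D0), 10.3 (W2) and 5.44 (W6) and was not listed at W1 or W12. In SOX9+AFOS the distal peak, at 55.5, far exceeded the proximal one, at 6.49, in SOX9+ARID1a the values were 35.9 and 13.8, and in AFOS they were 27.3 and 15.5. In noDOX (23.1), ΔHMG-SOX9 (42.0) and ΔTA-SOX9 (16.9) 1 wide peak spanned both, and in WT-SOX9 a peak of 50.6 covered the distal part alone. The p63 letters printed above lie 68 bp from the centre of the SOX9+AFOS peak, in the distal part, and p63 is the transcription factor that maintains the epidermal basal layer.

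Farther upstream, the region 9.06 kb from Krt5 (chr15:101721375-101722542) scored 19.2 in WT-SOX9, 30.7 in SOX9+AFOS and 21.4 in SOX9+ARID1a and had no peak in noDOX, ΔHMG-SOX9, ΔTA-SOX9 or AFOS. In skin it was listed at W6 alone, with a score of 4.09. The region 4.54 kb upstream scored 16.5 in SOX9+AFOS and 5.29 in SOX9+ARID1a and was in no other culture list, while in skin it scored 3.14 (D0), 4.24 (W1) and 5.59 (W12). The region 3.12 kb upstream was present in all skin lists, at 6.83 to 10.1, and in culture scored 12.8 in noDOX and 7.1 to 13.0 where present, with no peak in ΔHMG-SOX9 or ΔTA-SOX9. At the 3′ end of Krt5, 6.26 kb past the start, scores were 10.5 in noDOX, 4.67 in WT-SOX9, 11.7 in ΔHMG-SOX9, 3.32 in AFOS, 24.5 in SOX9+AFOS and 7.17 in SOX9+ARID1a, and ΔTA-SOX9 had no peak. WT-SOX9 was thus 2.25-fold below noDOX and SOX9+AFOS 2.33-fold above it.

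Between Krt6a and Krt6b, the region 5.62 kb past the Krt6a start (chr15:101687786-101689588) was absent from skin other than W6, where it scored 4.4. In culture it scored 10.7 in noDOX, 15.5 in WT-SOX9, 14.4 in ΔHMG-SOX9, 3.68 in ΔTA-SOX9, 10.8 in AFOS, 58.2 in SOX9+AFOS and 27.4 in SOX9+ARID1a. SOX9+AFOS was 5.43-fold above noDOX and ΔTA-SOX9 2.91-fold below it. The other Krt6b regions scored at most 7.08, in SOX9+ARID1a for a region 2.7 kb upstream of Krt6b that had 5.44 in WT-SOX9.

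**Figure D4:**
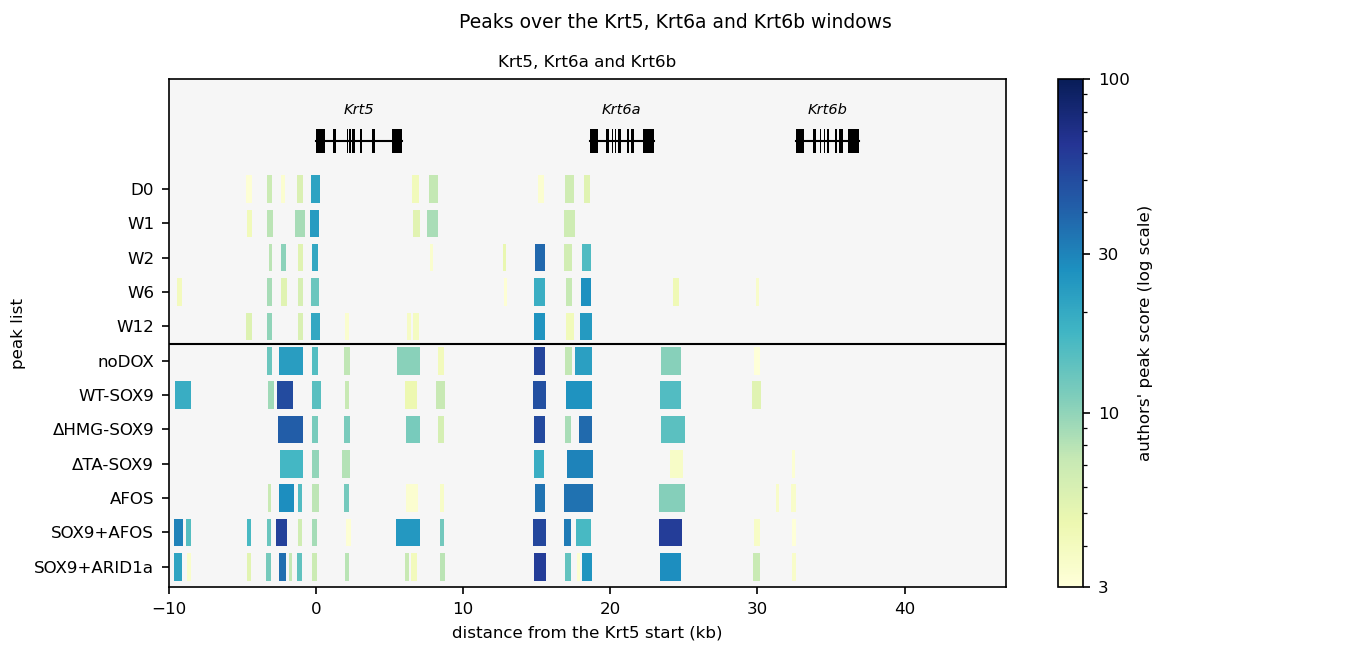
Peaks of the 12 lists (rows) in the joined windows of Krt5, Krt6a and Krt6b, placed by distance from the Krt5 start in kb, drawn as in the plot of Krt15, Krt1 and Krt10. The column of dark boxes between Krt5 and Krt6a is the region 3.38 kb upstream of Krt6a, pale at D0 (3.32), absent at W1 and at 38.0 (W2), and the Krt6b start has at most 3.61.

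**Figure D5:**
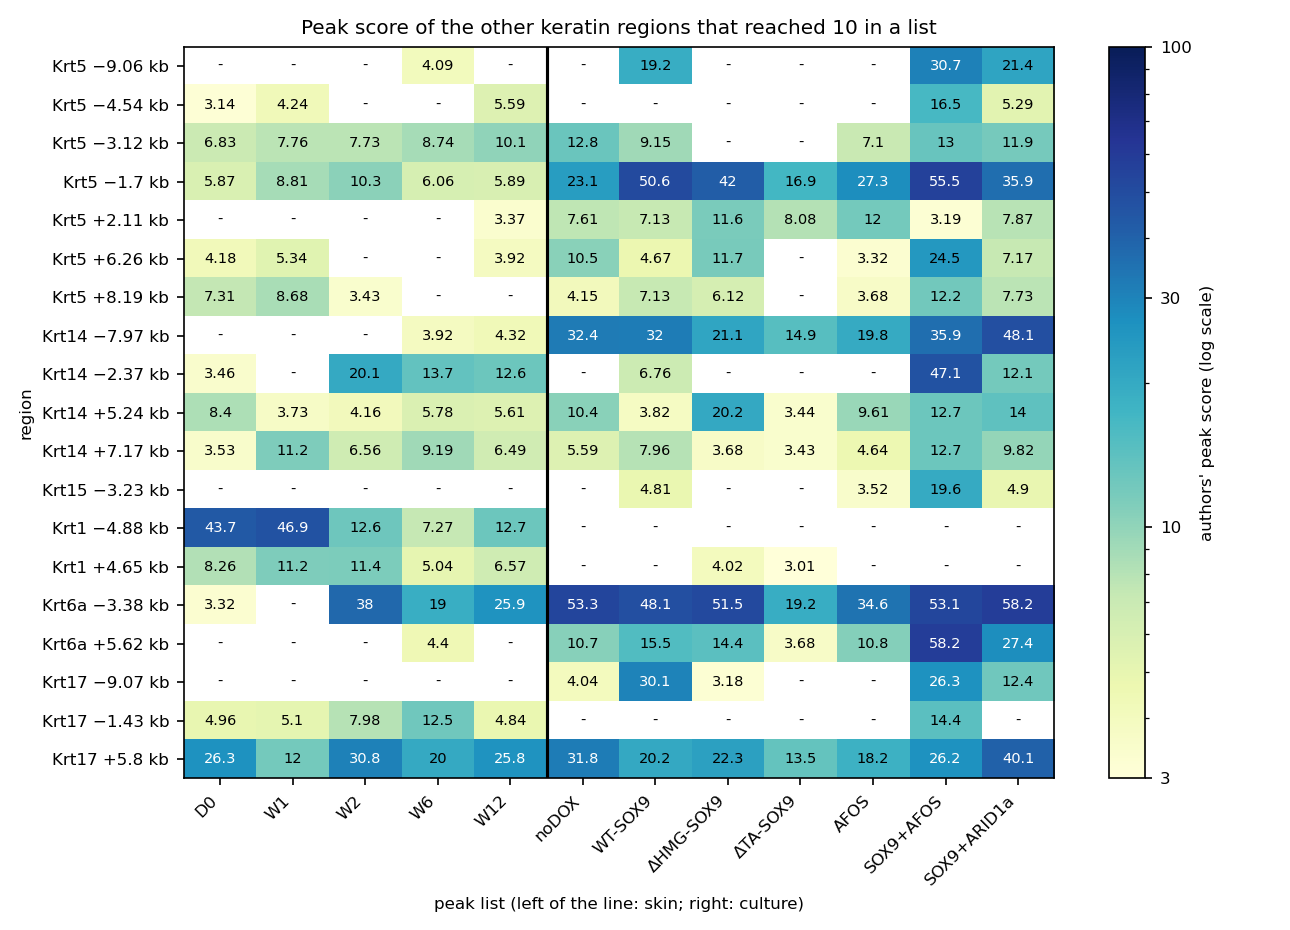
Authors' peak score (colour on a log scale, value in each cell, dash for no peak) of the member regions away from a gene start that reached a score of 10 in any list; rows are named by the nearest member and the distance of the region's centre from its start. Krt1 at 4.88 kb upstream is filled in skin only, and among the culture lists Krt5 at 9.06 kb and Krt14 at 2.37 kb upstream are filled in the 3 labelled as carrying full-length SOX9.

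Counted over the windows, 45 regions joined from the 5 skin lists held a keratin peak. Of these 16 (35.6%) were present in all 5, against 37.8% of all 98240 skin regions, and 19 (42.2%, against 41.1%) without the list labelled W1. When the skin lists shared 1 minimum of −log10 q, 7 of 34 were present in all 5 (20.6% against 34.0%). From D0 to W1, 5 of the 45 were gained (11.1%) and 8 lost (17.8%), where 8.97% and 7.29% of all regions were. From W1 to W2, 6 were gained and 8 lost (18.1% and 14.6% of all regions), from W2 to W6 10 and 4 (19.8% and 6.79%), and from W6 to W12 7 and 8 (10.3% and 14.3%). These balances moved with the threshold, since a score of at least 5 left 2 lost from D0 to W1 (7.46% of all regions) and 1 gained from W2 to W6 (16.3%). With lists of equal size the W2 to W6 step had 0 gains and 4 losses (12.3% and 10.8%) and the W6 to W12 step 5 and 2 (10.8% and 10.7%). Leaving W1 aside, 3 were gained and 8 lost from D0 to W2 (16.4% and 11.2% of all regions). That balance depended on the threshold, with 7 gained and 5 lost at a score of at least 5 (17.9% and 10.9% of all regions) and 1 gained and 17 lost of 34 when the skin lists shared 1 minimum of −log10 q (5.77% and 31.3%). From D0 to W6, 9 were gained and 8 lost (29.0% and 10.8% of all regions), and this balance turned to 0 gained and 11 lost of 37 with lists of equal size (18.8% and 18.3%) and to 0 and 16 of 34 with the shared −log10 q minimum (13.2% and 26.7%). The 9 regions gained by W6 scored between 3.21 and 4.4 and the 8 lost ones between 3.14 and 7.31 (D0), so these counts turn on weak peaks.

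The larger score changes were at regions open at both times. Of 22 keratin regions with a peak at D0 and W2, 4 (18.2%) were at least 2-fold higher and 3 (13.6%) lower at W2, against 11.3% and 8.36% of all such regions. At a score of at least 5 at both times the higher count was 1 of 13 (7.69% against 8.31%) and the lower count 1 (7.69% against 6.87%). The higher ones of the 22 were the Krt6a start, the regions upstream of Krt6a and Krt14 and the distal peak upstream of Krt5. The lower ones were the regions upstream of Krt1, 3′ of Krt14 and 8.19 kb past the Krt5 start. Of 22 regions with a peak at D0 and W6, 5 (22.7%) were at least 2-fold higher and 2 lower, the Krt1 upstream region and the Krt15 start, against 11.5% and 11.3% of all. With a score of at least 5 the higher count at W6 was 1 of 14 (7.14% against 7.61%) and the lower count 2 (14.3% against 9.77%).

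In culture 35 regions held a keratin peak, and 14 (40.0%) were in all 7 lists, against 25.3% of all 97078 culture regions. At a score of at least 5 that count was 9 of 30 (30.0% against 25.5%). Relative to noDOX, WT-SOX9 opened 5 (14.3%, against 14.4% of all regions) and closed 2 (5.71% against 15.1%). ΔHMG-SOX9 opened 1 (2.86% against 8.14%) and closed 4 (11.4% against 9.97%). ΔTA-SOX9 opened 4 (11.4% against 14.8%) and closed 7 (20% against 10.4%). AFOS opened 5 (14.3% against 15.9%) and closed 6 (17.1% against 9.36%). SOX9+AFOS opened 8 (22.9% against 14.4%) and closed 3 (8.57% against 18.8%). SOX9+ARID1a opened 5 (14.3% against 13.3%) and closed 1 (2.86% against 11.1%). The opened counts of ΔTA-SOX9 and AFOS rested on weak peaks, being 1 each at a score of at least 5 (3.33%, against 13.4% and 14.4% of all regions) and 0 and 1 with lists of equal size (12.5% and 11.4% of all regions). These comparisons share 1 noDOX list. The regions opened by WT-SOX9 lay 9.58 kb past the Krt10 start (score 4.1), 3.23 kb upstream of Krt15 (4.81), 2.37 kb upstream of Krt14 (6.76), 9.06 kb upstream of Krt5 (19.2) and 7.38 kb past the Krt1 start (5.45). The closed ones lay 4.19 kb upstream of Krt16 and 6.34 kb upstream of Krt1 and scored 4.9 and 3.89 in noDOX.

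Score differences were counted among regions present in both lists, with no test between arms. Of 21 shared by noDOX and WT-SOX9, 3 were at least 2-fold higher and 2 lower in WT-SOX9 (6.04% and 19.6% of all shared regions), the lower ones being the 3′ end of Krt5 and that of Krt14 (3.82 against 10.4). ΔHMG-SOX9 had 0 of 19 in either direction (5.48% and 7.41%). ΔTA-SOX9 had 0 higher and 5 of 16 lower (9.13% and 11.2%), the lower ones being both distal Krt6a regions, the region upstream and that at the 3′ end of Krt14 and the 3′ end of Krt17. AFOS had 0 higher and 2 of 17 lower (10.8% and 12.4%), the Krt5 start and 3′ end. SOX9+AFOS had 7 of 20 higher and 2 lower (14% and 17.4%), the higher ones including 3 Krt5 regions, the Krt6a region at 58.2 and the Krt10 inner start, and the lower ones the Krt16 start and the region 2.11 kb past the Krt5 start. SOX9+ARID1a had 3 of 22 higher and 1 lower (11.4% and 15.5%), and the lower one was the Krt5 start. Where both scores were at least 5, WT-SOX9 had 2 of 15 higher and 0 lower (4.84% and 15.5% of all shared regions). ΔHMG-SOX9 then had 0 of 13 in either direction (3.8% and 5.38%). ΔTA-SOX9 had 0 higher and 3 of 12 lower (6.57% and 8.81%), and AFOS 0 higher and 1 of 14 lower (8.02% and 10.9%). SOX9+AFOS had 5 of 15 higher and 1 lower (12% and 13.9%), and SOX9+ARID1a 1 of 16 higher and 1 lower (9.13% and 13.5%). The peak names of AFOS, SOX9+AFOS and SOX9+ARID1a record fragments as input and those of the other lists do not, so arm and peak calling cannot be told apart for these 3.

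Over all 12 lists, 29 of the 47 regions (61.7%) had peaks in both skin and culture, against 43.0% of all regions, 12 were in skin alone (25.5% against 27.9%) and 6 in culture alone (12.8% against 29.1%). Present in every list were 10 of the 47 (21.3%, against 14.1% of all regions). They were the regions that hold the starts of Krt5, Krt14, Krt16, Krt17 and Krt6a (at W1 the Krt6a region had only its upstream peak), the inner start of Krt10, the Krt5 upstream region, the 3′ regions of Krt14 and Krt17 and the region 7.17 kb past the Krt14 start.

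Motif matches were counted in the central 200 bp of each region, which can differ from the 200 bp at the highest peak that are printed above. AP1 letters (TGACTCA) were in 9 of 47 regions (19.1%, against 19.4% of all), SOX letters (ACAATGG or ACAATAG) in 2 (4.26% against 6.07%), GATA letters (AGATAA) in 2 (4.26% against 10.7%) and RUNX letters (TGTGGT) in 7 (14.9% against 16.5%). AP2 letters (GCC, any 3 bases and GGC) were in 4 (8.51% against 8.92%) and p63 letters in 0 (1.11% of all). At the centre of the highest peak the counts were AP1 10 (21.3% against 20.4%), AP2 3 (6.38% against 9.06%) and p63 1 (2.13% against 1.14%), the last being the Krt5 match shown, with SOX, GATA and RUNX as before. The motifs were sought on both strands and a match is a description, not a bound site. In the 250 bp before the 5′ ends, TATAAA on either strand was found for 4 of 9 genes, against 11.5% of 21938 coding genes. These were Krt10, Krt17 and Krt16 with it on the gene's strand, 26, 31 and 91 bases before the start, and Krt15 with it on the other strand.

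Other genes of the family were read at their starts. Of 16 other epithelial keratins, Krt80 alone had a start peak in all 12 lists and 9 had none in any. Krt8, a keratin of simple epithelia, had none in skin and one in all 7 culture lists, from 5.61 in noDOX to 30.2 in AFOS. Its partner Krt18 scored 4.49 in WT-SOX9, 4.09 in ΔHMG-SOX9, 7.0 in ΔTA-SOX9 and 9.87 in AFOS and had none elsewhere, and Krt7 scored 7.84 in AFOS, 39.3 in SOX9+AFOS and 7.34 in SOX9+ARID1a alone. Krt77, the neighbour of Krt1, had a start peak at D0 (6.06) and W1 (9.2) and in no other list. Of 8 proteins that tie keratin filaments to junctions and the cytoskeleton, 6 (Dsp, Evpl, Plec, Dst, Pkp1 and Jup) had a start peak in all 12 lists, Ppl in 9 and Eppk1 in none. Of 5 suprabasal markers, Ivl had a start peak in all 12 lists, Krt10 had one there only when its inner start is counted, and Krt1, Lor and Flg had none.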

How the data were processed

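The authors mapped the ATAC-seq read pairs to GRCm38 through PEPATAC and pooled the 2 replicates of each group. MACS2 then called peaks on each pool with duplicate reads kept, and peaks scoring below 3 after normalization were dropped. The submitters' processing notes name Bowtie2 2.2.9, Picard 2.3.0, SAMtools 1.9, MACS2 2.1.1 and deepTools 2.5.4. Each list holds the peak score deposited by the authors, and the skin lists also hold the MACS2 fold enrichment and −log10 q deposited by the authors. The score scaling was inferred from list totals that are close to each other, and read depth is unknown. Score and −log10 q grow with depth as well as with accessibility. The lists held 49458 (SOX9+AFOS) to 75956 (W6) peaks.

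Peaks overlapping by at least 1 bp were joined into regions, separately for the 5 skin lists, the 7 culture lists and all 12. A region takes the score of its highest peak in a list. Genes were the 21951 protein-coding genes of GENCODE M21, and peak ends lay within the GRCm38 chromosomes used. The named regions were the start of each member in every list, other regions that changed presence or differed from noDOX with a score of at least 10 in any list, and the 3 genes most alike each member with a start peak in all 12 lists, of which those for Krt17 are not reported here. Motifs were matched by letters in GRCm38.p6 sequence for the 134343 regions on assembled chromosomes. Of the 9 members, the RefSeq promoter table held Krt10, Krt14 and Krt5, and none of it is printed. The scripts used Python 3.11.15, numpy 2.4.6 and samtools 1.23.1, and were tested on simulated peaks and sequences. The members, lists and motifs were chosen with earlier results of these data known. Alternatives tried were a score of at least 5, lists of equal size, an overlap of 50% of the shorter peak, a common −log10 q minimum in skin, and counts without the lists labelled AFOS or W1.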

Additional observations from a re-analysis of the deposited data

How the results depend on the processing

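With 1 list per group there was no replicate to leave out. No paired analysis was possible because the replicates of each group were merged before peaks were called. The D0 to W2 and D0 to W6 spans, the count of regions present in every one of the 12 lists, the 2-fold score counts, the 500 bp start distance, the count without W1 and the rule for the printed sequences were chosen after seeing the data. Presence counts rest on peaks near the score minimum, and the cause of each shift below was not tested.

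With a score of at least 5, the skin regions numbered 29, the lost regions 2 from D0 to W1, 2 from W2 to W6 and 3 from W6 to W12 (7.46%, 8.7% and 13.9% of all regions), and the gained regions 1 from W2 to W6 and 3 from W6 to W12 (16.3% and 9.62%). From D0 to W2 this setting gave 7 gained and 5 lost (17.9% and 10.9%), and from D0 to W6 5 gained and 4 lost (26.5% and 12%). Regions in all 7 culture lists numbered 9 (25.5%), and ΔTA-SOX9 and AFOS each opened 1 (13.4% and 14.4%). SOX9+ARID1a closed 2 of 30, where 8623 of all 74621 regions were closed. The regions at least 2-fold higher numbered 1 of 13 at W2, 1 of 14 at W6 and 1 of 16 in SOX9+ARID1a (8.31%, 7.61% and 9.13% of all shared regions). Those lower numbered 1 of 13 at W2, 0 of 15 in WT-SOX9 and 3 of 12 in ΔTA-SOX9 (6.87%, 15.5% and 8.81%). AFOS had 1 of 14 lower and SOX9+AFOS 1 of 15 (10.9% and 13.9%). With lists cut to 57334 peaks in skin and 49458 in culture, gained regions numbered 3 from D0 to W1, 0 from W2 to W6 and 0 from D0 to W6 (9.99%, 12.3% and 18.8% of all regions), and 2 were lost from W6 to W12 (10.7%). ΔTA-SOX9 then opened 0 (12.5%) and AFOS 1 (11.4%), and SOX9+ARID1a closed 3 (13.2%). Regions at least 2-fold lower then numbered 3 of 13 in ΔTA-SOX9 (9.68% of all shared regions) and 1 of 15 in AFOS (10.7%). With a common −log10 q minimum of 14.5, 7 of 34 skin regions (20.6%, against 34.0% of all regions) were in all 5 lists. Gains were then 1 from D0 to W1, 4 from W2 to W6, 1 from D0 to W2 and 0 from D0 to W6 (5.0%, 16.6%, 5.77% and 13.2% of all regions). Under this minimum 17 (50%, against 31.3% of all regions) were lost from D0 to W2, 16 (47.1% against 26.7%) from D0 to W6 and 0 from W6 to W12 (4.76% of all). Of the regions with a peak at both times, 1 of 13 was at least 2-fold lower at W2 and 1 of 14 at W6 (4.12% and 7.42% of all such regions).

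The remaining counts kept within 1.5 times of the values reported, 33 of 55 with a score of at least 5, 46 of 55 with lists of equal size, 8 of 18 with the common minimum, all 46 with the stricter overlap, and the counts without AFOS (14 in all other culture lists) and without W1 (19).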
